A study of Mus musculus with 10 samples.

Results

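The 10 genes described here encode heat shock proteins, the molecular chaperones that bind unfolded proteins, and they were taken as a set of 10 among the 34254 genes counted in mouse retinal ganglion cells. They are the small heat shock genes Hspb1 and Cryab, the Hsp70 genes Hspa1a, Hspa1b, Hspa5 and Hspa8, the Hsp90 genes Hsp90aa1 and Hsp90ab1, the Hsp40 gene Dnajb1 and the Hsp110 gene Hsph1. Retinal ganglion cells of wild-type 129S1/SvImJ mice of both sexes, 12 weeks old at collection, were purified with antibody to Thy1 after macrophages (in the study's methods, amacrine cells too) had been removed, and single cells were sequenced. Uninjured retinas gave 6 libraries, and retinas taken 2 weeks after the optic nerve had been crushed gave 4 libraries, with 10 retinas pooled per batch. The libraries held 98 to 651 cells each in the uninjured group and 273 to 527 in the injured group, with 2839693 to 23180399 and 4698799 to 8860536 transcript molecules (unique molecular identifiers, UMIs). The median cell held 20437 to 34337 UMIs in the uninjured libraries and 11257 to 14695 in the injured libraries.

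Crushing the optic nerve cuts the axons of retinal ganglion cells, and most of these neurons die over the following weeks. Chaperones hold damaged proteins in solution, refold them or pass them to degradation, and their genes are switched on by heat shock factors in the cytosol or by the unfolded protein response of the endoplasmic reticulum. Comparing the 10 genes between uninjured and injured cells shows which branches of this system were higher or lower in the surviving neurons.

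Injured libraries 3 and 4 shared 421 cell barcodes, so their counts were averaged into injured 3/4, which left 6 uninjured and 3 injured samples. Libraries also came in pairs with close profiles, in the uninjured group 1 with 2, 3 with 4 and 5 with 6, and in the injured group 1 with 2, whose distance relative to counting noise was 1.47 to 2.28 against 3.86 to 21.2 for the other pairs within a condition. Nothing says that the libraries came from separate animals, so the p-values measure the spread between these samples. Xist, the transcript of the inactive X chromosome, marked 62.1% of cells in injured 1 and 67.4% in injured 2, but no more than 0.569% in the remaining libraries, so cells of female origin were seen almost only after injury. Among cells without Xist and with a Y-linked UMI, the log2 fold changes were 4.76 for Cryab, 1.64 for Hspa5, 1.31 for Hsp90aa1 and 1.37 for Hspb1, all past the threshold used below. The reporter mCherry marked 7.99%, 15.0%, 86.0% and 84.3% of cells in injured 1 to 4, and no uninjured cell held a UMI of it. The reporter thus ran in part with condition, and the sample labels do not say what carried it. Cells were thinned to 8000 UMIs each to compare them. Without mCherry, those of injured 1 and 2 averaged 23.0 and 24.2 Hsp90aa1 UMIs and 3.47 and 2.81 Hspa5 UMIs. In injured 3 and 4, the 74 and 54 cells without mCherry averaged 8.46 and 8.74 Hsp90aa1 UMIs and 1.77 and 1.83 Hspa5 UMIs. The cells with mCherry in injured 3 and 4 averaged 18.2 and 18.4 Hsp90aa1 UMIs and 4.34 and 4.55 Hspa5 UMIs. The uninjured libraries averaged 7.01 to 11.5 Hsp90aa1 UMIs and 0.91 to 1.44 Hspa5 UMIs. Whether the reporter had an effect was not tested.

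Some markers of the cell classes also differed between the conditions. Over all genes tested, 21.3% were higher and 22.7% were lower after injury, the shares to set beside each count of markers. Of 8 ganglion cell markers, all tested, 1 was higher and 5 were lower after injury, and their summed level was 6448 to 8729.8 CPM (UMI counts relative to the library totals of tested genes, scaled by the trimmed mean of M-values) in the uninjured samples and 4713, 5305 and 5793 CPM in the injured samples. Sncg was the most abundant of them in uninjured samples, at 2185 CPM on average, and was at 1049.7 CPM in injured samples, and Rbpms fell from 699 to 302 CPM. Pou4f1, Nefl and Nefm also fell, and the 1 that rose was Tubb3, from 544 to 1262 CPM, all 4 named after their values were seen. For Müller glia, 7 of 10 markers could be tested, 4 were higher and 2 lower, and the sum was 206 to 271 CPM against 413, 475 and 304 CPM. Clu was the most abundant, at 92.5 and 273 CPM, and rose with Glul, Rlbp1 and Sox9, while Apoe and Dkk3 fell, all but Clu named after their values were seen. On average, Glul rose from 43.8 to 82.2 CPM, Rlbp1 from 1.75 to 10.0 CPM and Sox9 from 0.343 to 13.0 CPM. Apoe fell from 7.97 to 2.02 CPM and Dkk3 from 87.7 to 15.6 CPM. Kcnj10, Aqp4 and Car14, on the same list and too low to be tested, were at most 0.175 CPM in any injured sample. For astrocytes, 3 of 6 markers could be tested, and 1 of them, Aldoc, the most abundant, was lower. The astrocyte sums were 231 to 777 CPM against 50.3, 45.8 and 47.3 CPM. Aldoc was found in 76.5% to 91.4% of cells in the uninjured libraries, so it did not single out a small class there. Gfap was at most 0.449 CPM in any sample, and Gja1 was at 0 in every injured sample. Of 8 microglial markers, 2 were tested and Cx3cr1 was higher, from 3.39 to 9.66 CPM, with sums of 5.33 to 18.8 CPM against 14.4, 20 and 7.92 CPM. Of 6 rod markers, 2 were tested and Pde6b was higher, from 0.318 to 10.5 CPM, with sums of 3.37 to 17.1 CPM against 10.7, 31.4 and 12.6 CPM. All 6 amacrine markers were tested and Slc6a9 was higher, from 6.02 to 20.6 CPM, with sums of 52.3 to 179 CPM against 148, 109 and 56.7 CPM. Sag and Gad1 were the most abundant rod and amacrine markers in uninjured samples, and Pde6b and Slc6a9 were named after their values were seen. No bipolar or oligodendrocyte marker passed the threshold, and no cone or endothelial marker could be tested.

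With cells holding 3 or more markers of another class left out, the 4 heat shock genes found higher below were higher too. Cryab rose by a log2 fold change of 4.58 there. This filter kept 935 of 1683 uninjured and 1346 of 1609 injured cells. Its lists held genes found in many cells, such as Glul in 52.4% to 68.9% of cells in the uninjured libraries. The lens and oligodendrocyte lists were not part of it. It thus cannot cleanly single out cells of other classes, and any other bearing of these markers was not tested.

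After injury, Cryab, Hspa5, Hsp90aa1 and Hspb1 were higher. Hsp90ab1 and Hspa8, the most abundant of the 10 in uninjured samples, kept close to their uninjured levels, and Hsph1 differed little. The stress-inducible genes Hspa1a, Hspa1b and Dnajb1 were not higher than in uninjured cells, and their highest samples were uninjured libraries. Of the 10 genes, all tested, 4 were higher at a Benjamini-Hochberg-adjusted p under 0.05 by edgeR's quasi-likelihood test, while 21.3% of the 14234 genes tested were higher, 22.7% were lower and 44% changed in either direction. None of the 10 genes was lower: the count was 0 by edgeR, 0 at an unadjusted p under 0.05, 0 by DESeq2 and 0 by limma-voom. No overlap between the conditions was seen for 5 of the 10 genes, as was the case for 42.9% of all genes tested. The median log2 fold change was 0.17 over the 10 genes and -0.03 over all genes tested.

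**Figure D1:**
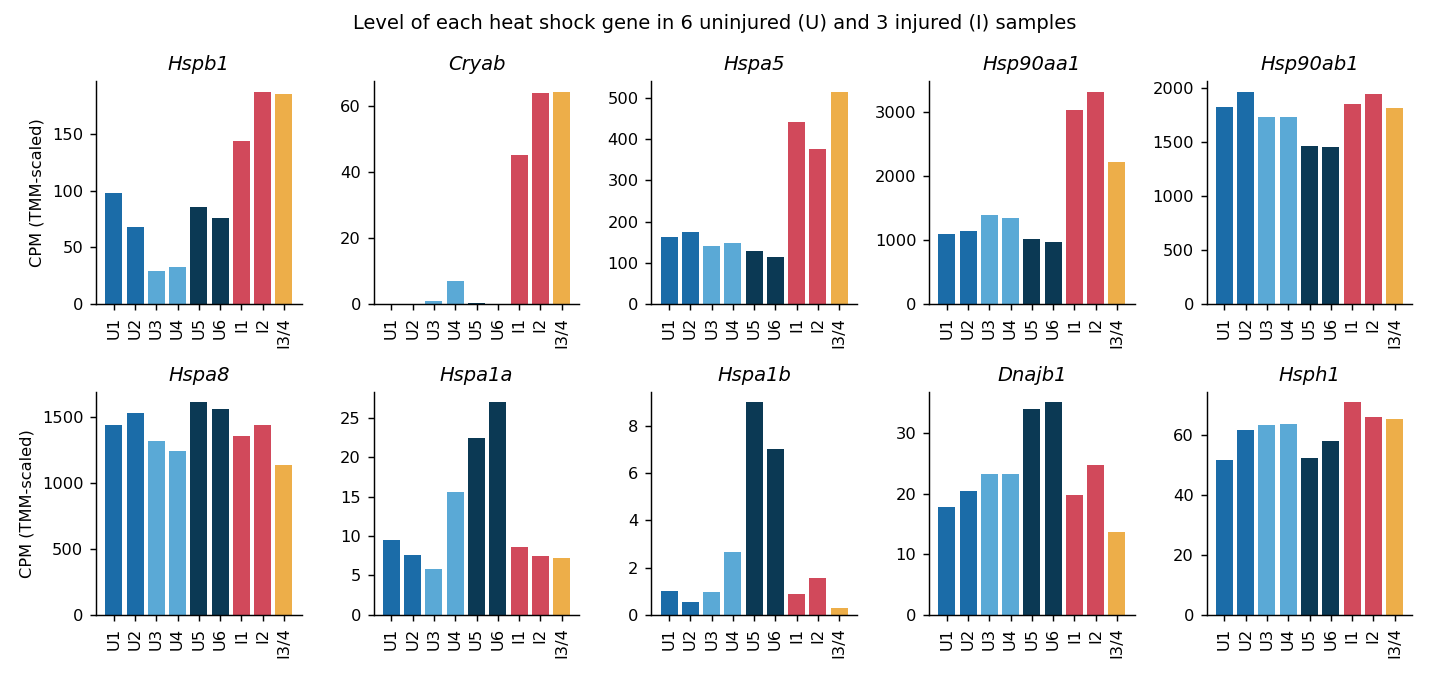
Level of each of the 10 heat shock genes in CPM (vertical axes) in the 6 uninjured and 3 injured samples (bars). Cryab reached 45.2, 64.0 and 64.5 CPM in the injured samples against at most 6.87 CPM in the uninjured samples.

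**Figure D2:**
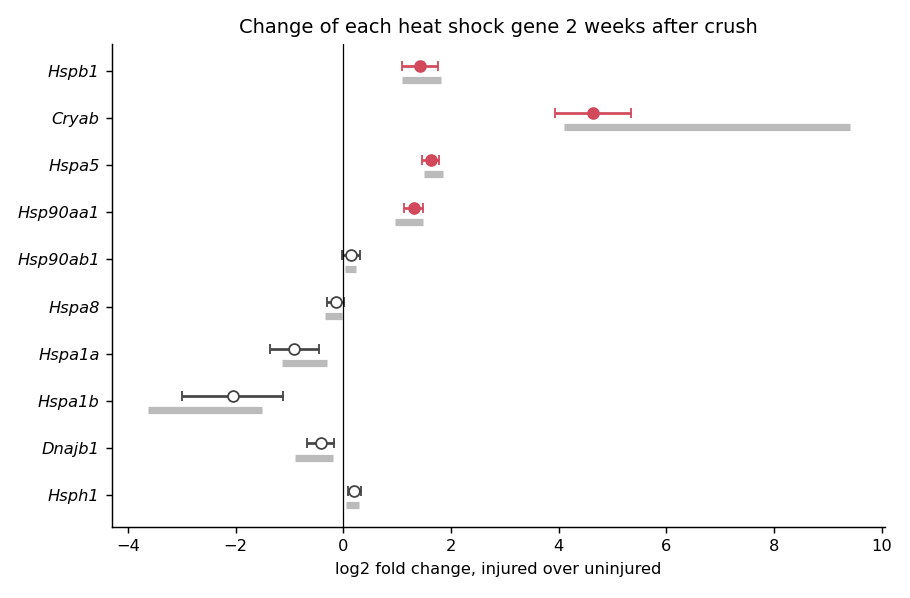
Log2 fold change of injured over uninjured samples for each gene (points, with bars for 1 standard error). Filled red points mark the 4 genes past the threshold, and grey bars give the range over the alternative analyses, 4.09 to 9.40 for Cryab.

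Cryab had the largest change of the 10 genes, from traces in uninjured samples to a level carried by a minority of cells after injury. It encodes alphaB-crystallin, a small heat shock protein that keeps unfolding proteins from clumping, and lies at chr9:50651859-50668567 on the forward strand of the mouse genome GRCm39, where its canonical transcript has 3 exons. Cryab was at 0, 0.0919 and 6.87 CPM in the lowest, median and highest uninjured samples and at 45.2, 64.0 and 64.5 CPM in injured 1, injured 2 and injured 3/4. All 3 injured samples stood above all 6 uninjured samples, and uninjured 4 was highest among these, with uninjured 3 next at 1.05 CPM. The mean was 1.35 ± 2.73 CPM (SD) in uninjured and 57.9 ± 11 CPM in injured samples, and Cryab rose by a log2 fold change of 4.64 (SE 0.70, n = 6 and 3, edgeR's quasi-likelihood test, Benjamini-Hochberg-adjusted p = 0.000234). Without uninjured 4, the log2 fold change of Cryab was 6.90 (SE 0.45, adjusted p = 8.05e-07 by the same edgeR test). Without uninjured 3 and 4, a choice made after the data were seen, it was 9.40 (edgeR adjusted p = 1.95e-07), a value that rests on 1 uninjured UMI. Uninjured 1, 2, 5 and 6 were picked because each held at most 1 Cryab UMI. In these 4, that 1 UMI stood against 1023 UMIs in the injured samples, a ratio of rates of 951. The libraries left out held the most Cryab, so the choice itself makes this ratio high. It describes the 4 others only and carries no interval. Over all 6 uninjured samples, the ratio of mean levels was 42.8. Hspb2, which lies beside Cryab on the opposite strand and overlaps it, was too low to be tested and reached at most 0.537 CPM. Another overlapping gene on the opposite strand, 2310030G06Rik, was counted separately.

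The uninjured Cryab UMIs were concentrated in 1 library. Uninjured 4 held 167 of them, in 141 of its 651 cells, and 129 of these cells held 1 UMI each. Uninjured 3 held 14 Cryab UMIs in 4 cells, 11 of them in a single cell, while uninjured 1, 2 and 6 held 0. Uninjured 4 was also the library with the lens genes Crygs, at 49 UMIs in 47 cells, and Cryaa, at 20 UMIs in 18 cells, both at 0 in every injured library. The list of 8 lens genes, 1 of them tested and not past the threshold, summed to 9.21 CPM in uninjured 4, to 3.03 to 5.33 CPM in the other uninjured samples, and to 4.55, 6.29 and 2.82 CPM in the injured samples. Crybb3 was its most abundant gene, at 2.63 and 2.44 CPM, and Crygd and Lim2 were at 0 throughout. Whether the lens transcripts and the Cryab UMIs of uninjured 4 share a source was not tested. In injured 1 to 4, the 5% of cells with the most Cryab held 45.3%, 59.6%, 66.9% and 66.4% of its UMIs, and the highest cells held 19, 39, 33 and 28 UMIs.

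Hspb1 was higher in every injured sample than in any uninjured sample, with wide spread among the uninjured libraries. It encodes Hsp27, a small heat shock protein that also binds actin filaments, and lies at chr5:135916760-135918417 on the forward strand, with 3 exons. The sequence before its start is shown because it holds inverted repeats of the kind bound by heat shock factors. It is the 250 bases before the start in the RefSeq-based table of build GRCm38.p6, matched to GRCm39 at chr5:135916523-135916772 on the forward strand, and capitals mark the motif GAANNTTC, where N is any base:
Hspb1: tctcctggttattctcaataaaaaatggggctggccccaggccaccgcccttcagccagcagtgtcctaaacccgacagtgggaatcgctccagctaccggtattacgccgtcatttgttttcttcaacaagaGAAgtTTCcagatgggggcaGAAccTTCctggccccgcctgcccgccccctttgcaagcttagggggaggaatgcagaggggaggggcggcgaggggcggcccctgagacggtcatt

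The motif began 117 and 97 bases before the start of Hspb1 in the RefSeq-based table. That start lies inside the gene as placed above, since 13 bases of the window lie within an annotated exon. On both strands together, GAANNTTC or TTCNNGAA was found in 12.8% of the 32851 windows of 250 bases in the table and in 5 of the 8 windows of heat shock genes. These 8 windows came from 6 genes, and the 5 include a pair of overlapping Hsph1 windows and the near-identical windows of Hspa1a and Hspa1b, so some motifs count more than once. The longer GAANNTTCNNGAA or TTCNNGAANNTTC was found in 0.466% of all windows and in 0 of these 8. The table held no window for Cryab, Hspa8, Hsp90aa1 or Hsp90ab1.

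Hspb1 was at 29.0, 71.6 and 97.7 CPM in the lowest, median and highest uninjured samples and at 143, 187 and 185 CPM in injured 1, injured 2 and injured 3/4. No injured sample overlapped the uninjured samples, of which uninjured 3 and 4 were lowest, at 29.0 and 32.9 CPM. The means were 64.7 ± 28 and 172 ± 24.6 CPM, and Hspb1 rose by a log2 fold change of 1.43 (SE 0.33, n = 6 and 3, edgeR's quasi-likelihood test, Benjamini-Hochberg-adjusted p = 0.00456). By pairs of libraries, Hspb1 averaged 82.8, 31.0 and 80.5 CPM in uninjured 1 and 2, 3 and 4, and 5 and 6, and 165 CPM in injured 1 and 2. With injured 1 and 2 left out, a choice made after the data were seen that leaves injured 3/4 as the only injured sample, Hspb1 no longer passed the threshold, with a log2 fold change of 1.54 (SE 0.52, edgeR adjusted p = 0.0704). The gap of 2.67 times between uninjured pairs was as wide as the 2.65 times between the means of the conditions.

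Hspa5 was higher in every injured sample, with the smallest adjusted p of the 10 genes. It encodes BiP, the Hsp70 chaperone inside the endoplasmic reticulum that also senses unfolded protein there, and lies at chr2:34661982-34668880 on the forward strand, with 8 exons. A stretch of 30 bases before its start in the RefSeq-based table, at chr2:34662032-34662061 on the forward strand of GRCm39, is shown because it holds the element bound during the unfolded protein response. Capitals mark both parts of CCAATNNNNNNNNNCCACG, and the stretch lies within an exon of some annotated transcripts:
Hspa5: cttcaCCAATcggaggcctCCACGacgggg

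This element lay 65 to 47 bases before the start of Hspa5 and was found, on either strand, in 0.113% of all windows and in 1 of the 8 windows of heat shock genes. Hspa5 was at 113, 145 and 175 CPM in the lowest, median and highest uninjured samples and at 442, 375 and 515 CPM in injured 1, injured 2 and injured 3/4. All 3 injured samples lay above all 6 uninjured samples, with injured 2 the lowest of them. The means were 145 ± 22.5 and 444 ± 69.9 CPM, and Hspa5 rose by a log2 fold change of 1.62 (SE 0.16, n = 6 and 3, edgeR's quasi-likelihood test, Benjamini-Hochberg-adjusted p = 8.89e-06). Rabepk, which overlaps Hspa5 on the opposite strand, did not pass the threshold (log2 fold change -0.09, edgeR adjusted p = 0.743).

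Genes of the endoplasmic reticulum and its unfolded protein response were mostly higher or not past the threshold. Of 27 such genes, Hspa5 included and all tested, 15 were higher and 1 was lower, against 21.3% and 22.7% of all genes, and their summed level was 1662 to 1718 CPM in the uninjured samples and 2990.5 to 3366 CPM in the injured samples. The largest rises among them were those of Ddit3, a transcription factor of prolonged stress, from 45.2 to 556 CPM on average (log2 fold change 3.62, edgeR adjusted p = 2.39e-09), and of Atf4, its activator, from 73.2 to 318 CPM (log2 fold change 2.12, edgeR adjusted p = 8.89e-06). Canx, the membrane chaperone calnexin and the most abundant gene of the list in uninjured samples, was the 1 that fell, from 306 to 169 CPM (log2 fold change -0.85, edgeR adjusted p = 0.000352). Chosen after their values were seen, Hsp90b1, the Hsp90 of the endoplasmic reticulum, was at 189.7 and 190.5 CPM (log2 fold change 0.01, edgeR adjusted p = 0.972), and Calr, the soluble partner of calnexin, rose from 126 to 172 CPM (log2 fold change 0.45, edgeR adjusted p = 0.0298). Of the sensors, also chosen after their values were seen, Atf6, Ern1 and Eif2ak3 rose by log2 fold changes of 1.32, 1.75 and 1.62.

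The Hsp90 pair divided after injury. Hsp90aa1, the inducible cytosolic Hsp90, was higher in all injured samples, whereas Hsp90ab1, the constitutive form, was not. Hsp90aa1 lies at chr12:110656842-110669166 and Hsp90ab1 at chr17:45878552-45891949, both on the reverse strand with 11 exons. Hsp90aa1 was at 965, 1111 and 1388 CPM in the lowest, median and highest uninjured samples and at 3018, 3309.6 and 2215 CPM in injured 1, injured 2 and injured 3/4. No injured sample overlapped the uninjured samples, and injured 3/4 was the lowest of the injured. The means were 1154 ± 172 and 2848 ± 567 CPM, and Hsp90aa1 rose by a log2 fold change of 1.3 (SE 0.18, n = 6 and 3, edgeR's quasi-likelihood test, Benjamini-Hochberg-adjusted p = 0.000139). Hsp90ab1 was at 1458, 1733 and 1969.7 CPM in the uninjured samples and at 1851, 1943 and 1822 CPM in the injured samples, which lay inside the uninjured range. Its log2 fold change was 0.14 (SE 0.16, edgeR adjusted p = 0.505). In uninjured samples Hsp90ab1 was thus the more abundant of the pair, and in injured samples Hsp90aa1 was. Slc35b2, which overlaps Hsp90ab1 on the opposite strand, was at 7.40 and 10.0 CPM, far below Hsp90ab1.

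Hspa8 and Hsph1, a pair of cytosolic chaperones that work together, did not pass the threshold. Hspa8 encodes Hsc70, the constitutive cytosolic Hsp70, and lies at chr9:40711630-40731039 on the forward strand, with 9 exons. It was at 1239, 1481 and 1610.3 CPM in the lowest, median and highest uninjured samples and at 1352, 1441 and 1136 CPM in the injured samples. Injured 3/4 lay below the uninjured range and the other injured samples inside it, and the log2 fold change was -0.15 (SE 0.16, edgeR adjusted p = 0.492). Hsph1, a nucleotide exchange factor for Hsp70, lies at chr5:149537636-149560156 on the reverse strand, with 18 exons. Its level was 51.5, 59.6 and 63.7 CPM in the uninjured samples and 70.7, 66.0 and 65.1 CPM in the injured samples. All injured samples of Hsph1 were above all uninjured samples, by a narrow margin, and the log2 fold change was 0.20 (SE 0.12, edgeR adjusted p = 0.184).

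Hspa1a, Hspa1b and Dnajb1 are the genes that heat and other acute stress switch on most strongly. None was higher after injury, and all 3 were highest in uninjured 5 and 6. Hspa1a and Hspa1b encode the inducible Hsp70, each in 1 exon on the reverse strand, at chr17:35188166-35191132 and chr17:35175412-35178214, with starts 12918 bases apart. Their coding parts were identical at 1916 of 1926 aligned positions, while the parts after the coding part aligned over 58 positions only. The value of each is uncertain as far as UMIs came from the coding part. The 250 bases before each start are shown because the copies share them at 247 of 250 positions, motif included, although the genes differed in level. They are from the same RefSeq-based table and lie on the reverse strand of GRCm39 at chr17:35191133-35191382 for Hspa1a and chr17:35178215-35178464 for Hspa1b, with GAANNTTC in capitals, 104 to 97 bases before the start:
Hspa1a: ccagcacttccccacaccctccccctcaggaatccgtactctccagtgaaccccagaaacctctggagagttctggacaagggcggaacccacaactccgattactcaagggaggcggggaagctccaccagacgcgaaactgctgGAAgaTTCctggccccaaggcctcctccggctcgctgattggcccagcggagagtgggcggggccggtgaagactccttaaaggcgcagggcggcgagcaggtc
Hspa1b: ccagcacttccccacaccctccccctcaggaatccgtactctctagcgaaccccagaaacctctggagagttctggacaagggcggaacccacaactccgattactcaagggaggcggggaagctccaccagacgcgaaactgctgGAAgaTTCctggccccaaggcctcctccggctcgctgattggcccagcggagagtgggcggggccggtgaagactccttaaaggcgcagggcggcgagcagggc

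Hspa1a was at 5.87, 12.5 and 27.0 CPM in the lowest, median and highest uninjured samples and at 8.58, 7.41 and 7.25 CPM in injured 1, injured 2 and injured 3/4. The injured samples lay near the bottom of the uninjured range, which uninjured 5 and 6 topped at 22.4 and 27.0 CPM, and the log2 fold change was -0.91 (SE 0.45, edgeR adjusted p = 0.124). Without uninjured 3, Hspa1a passed the threshold as lower (log2 fold change -1.08, SE 0.37, edgeR adjusted p = 0.0374). Hspa1b was at 0.561, 1.84 and 9.01 CPM in the uninjured samples and at 0.875, 1.57 and 0.269 CPM in the injured samples. Uninjured 5 and 6 again stood above the rest, at 9.01 and 7.02 CPM, and the log2 fold change was -2.06 (SE 0.94, edgeR adjusted p = 0.0983).

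Dnajb1, the Hsp40 that delivers unfolded proteins to the inducible Hsp70, lies at chr8:84334811-84339820 on the forward strand, with 3 exons. Its level was 17.9, 23.2 and 35.1 CPM in the lowest, median and highest uninjured samples and 19.8, 24.7 and 13.7 CPM in the injured samples. Injured 3/4 was below the uninjured range and uninjured 5 and 6 were at the top of it, and the log2 fold change was -0.42 (SE 0.25, edgeR adjusted p = 0.194). Without uninjured 5 and 6, a choice made after the data were seen, the log2 fold changes of Hspa1a and Dnajb1 were -0.38 (edgeR adjusted p = 0.339) and -0.19 (edgeR adjusted p = 0.412), and Hspa1b was too low to be tested.

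Of 20 immediate early genes, 16 were also highest in uninjured 5 and 6 among the uninjured pairs, by margins that differed widely. The share of all genes highest in this pair was not counted. Relative to counting noise, the pair lay at distances of 11.1 to 21.2 from the other uninjured libraries, which lay 1.82 to 4.13 from each other. Hspa1a averaged 8.50, 10.7 and 24.7 CPM over uninjured 1 and 2, 3 and 4, and 5 and 6, and Hspa1b averaged 0.786, 1.83 and 8.02 CPM. Fos, chosen after its values were seen, averaged 57.7, 39.4 and 164 CPM over the same pairs, and 17.9 and 13.8 CPM in injured 1 and 2 and in injured 3/4. Also chosen after their values were seen, Klf6 averaged 42.6, 38.1 and 47.5 CPM over the uninjured pairs, and Nr4a1, one of those not highest in uninjured 5 and 6, averaged 19.2, 12.4 and 16.1 CPM. After injury, 8 of the 19 that were tested were higher and 6 were lower, against 21.3% and 22.7% of all genes, and the sum of the list was 540 to 622 CPM in uninjured 1 to 4, 1348 and 1266 CPM in uninjured 5 and 6, and 2363, 2518 and 2877 CPM in the injured samples. Jund was the most abundant of them in uninjured samples, at 364 CPM on average and 611 CPM after injury, when Atf3 was the most abundant, at 799 CPM. What set this pair of libraries apart was not tested.

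**Figure D3:**
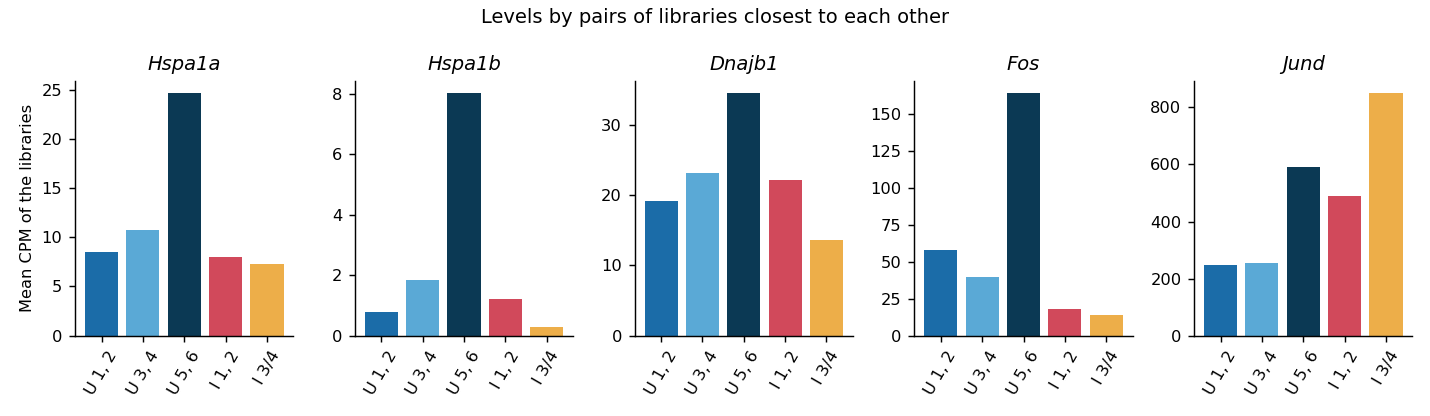
Mean level in CPM (vertical axes) of Hspa1a, Hspa1b, Dnajb1, Fos and Jund in each pair of libraries with close profiles (bars). Uninjured 5 and 6 were highest for Hspa1a, at 24.7 CPM, and for Fos, at 164 CPM.

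Shares of cells with a transcript were compared after thinning each cell to 8000 UMIs, because uninjured cells were deeper. Thinning kept 1654 of 1683 uninjured and 1376 of 1609 injured cells, where the barcodes shared by injured 3 and 4 count in both libraries and 1188 injured barcodes are distinct. Cryab was found in 8.23% of the thinned cells of uninjured 4 and in 0 of the other uninjured cells, against 20.6%, 19.1% and 19.2% of cells in injured 1, injured 2 and injured 3/4 (unthinned means 3.86% and 25.7%). In uninjured 1, 2 and 6, which held no Cryab UMI, 3 UMIs in as many cells would have made 3.06%, 2.91% and 1.49% of unthinned cells. Hspb1 was found in 17.1% to 45.3% of thinned uninjured cells and in 46.4%, 56.6% and 47.5% of thinned injured cells (unthinned means 48.8% and 64.2%). The share with Hspa5 averaged 63.9% in uninjured and 87.7% in injured samples (unthinned 89.0% and 92.1%). Hsp90aa1, Hsp90ab1 and Hspa8 were found in nearly every cell, with thinned means of 98.6% and 99.8%, 99.1% and 99.0%, and 97.8% and 97.6% (unthinned means of 99.7% and 99.6%, 99.9% and 99.1%, and 99.5% and 97.5%). Hspa1a averaged 7.97% and 6.12% (unthinned 21.4% and 9.29%), and Hspa1b 2.09% and 0.218% (unthinned 4.94% and 0.982%). Dnajb1 averaged 17.5% and 12.5% (unthinned 45.8% and 24.4%), and Hsph1 35.9% and 34.0% (unthinned 70.7% and 51.6%).

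Hspa5 and Hsp90aa1 made up a larger part of the UMIs of the typical cell after injury. The median thinned cell held 1 Hspa5 UMI in every uninjured library and 2 to 3 in the injured libraries. For Hsp90aa1, the mean thinned cell held 7.01 to 11.5 UMIs in the uninjured and 16.6 to 24.3 in the injured libraries.

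**Figure D4:**
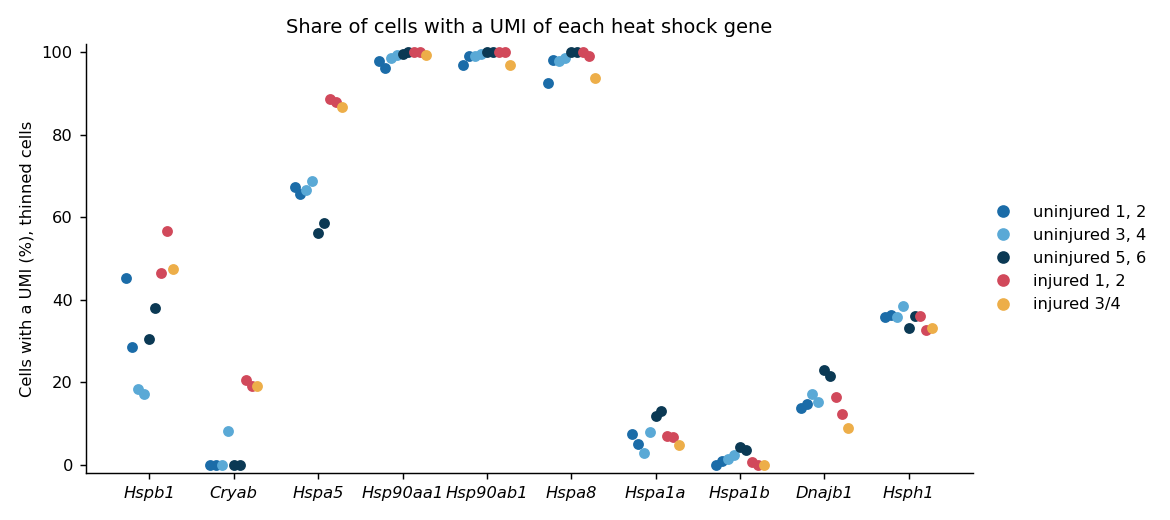
Percent of cells, thinned to 8000 UMIs each, with at least 1 UMI of each gene (vertical axes) by sample (points). The share with Cryab was 20.6%, 19.1% and 19.2% in the injured samples and 8.23% in uninjured 4.

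Within injured libraries, Cryab was compared between cells with and without a UMI of genes chosen after their values were seen, with injured 3 and 4 sharing cells and so not separate. Among cells with the melanopsin gene Opn4, 14, 14, 33 and 27 thinned cells in injured 1 to 4, Cryab was found in 14.3%, 0, 0 and 0, against 20.9%, 20.3%, 19.7% and 21.7% of the other cells. Hspb1 averaged 0.286, 0.429, 0.818 and 0.370 UMIs per thinned cell with Opn4 and 1.39, 1.97, 1.93 and 1.3 per cell without it. Among the 35, 30, 69 and 45 cells without the injury-response gene Atf3, Cryab was found in 14.3%, 3.33%, 2.90% and 0, against 21.4%, 21.3%, 21.0% and 22.9% of the cells with it. In injured 1, the mean was 0.432 Cryab UMIs per thinned cell with Atf3 and 0.429 without. Cells without Atf3 also held fewer Hsp90aa1 UMIs, at 18.6, 16.9, 10.2 and 8.11 per thinned cell against 23.6, 25.3, 17.8 and 18.2, and fewer Hspa8 UMIs, at 8.14, 9.5, 6.06 and 5.4 against 10.3, 10.4, 9.22 and 9.18. Cryab was found in 12%, 23.3%, 19.9% and 21.3% of cells with mCherry and in 21.4%, 18.6%, 9.46% and 13.0% of cells without it, and Hspb1 in 56%, 56.7%, 56.5% and 49.5% against 45.6%, 56.6%, 20.3% and 14.8%. In injured 4, Cryab UMIs averaged 0.6 per thinned cell with mCherry and 0.63 without. For cells with the injury-response gene Sprr1a, the share with Cryab was 21.9%, 20.5%, 19.6% and 18.8% against 19.8%, 18.5%, 17.7% and 20.8% of the others. Their Cryab UMIs averaged 0.482, 0.577, 0.645 and 0.781 per thinned cell against 0.401, 0.514, 0.457 and 0.506, and their Hspb1 UMIs 0.544, 1.17, 0.775 and 0.773 against 1.81, 2.20, 2.31 and 1.48. Some cells were poor in most of these transcripts: in injured 3, the 72 thinned cells with under 1% of ribosomal protein UMIs averaged 0.917 Hspa8, 3.36 Hsp90aa1 and 0 Cryab UMIs, against 10.2, 19.1 and 0.608 in the other 388 cells. Hspa8 and Hsp90ab1 had rank correlations over thinned cells of 0.172 to 0.661 in the uninjured and 0.196 to 0.613 in the injured libraries. The values were highest in uninjured 1 and in injured 3 and 4, which held cells poor in ribosomal protein UMIs, and lowest in uninjured 5 and 6 and injured 1 and 2, which held almost none, and the part of such cells was not tested. For Hspb1 and Cryab they were -0.0011 to 0.0663 in the injured libraries, where Cryab was found in 21.8%, 22.5%, 22.3% and 23.9% of cells with Hspb1 and in 19.5%, 14.7%, 14.1% and 17.0% of cells without it.

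Across the 9 samples, the genes that rose correlated to different degrees, with the difference between conditions contained in every value. Cryab and Hsp90aa1 correlated at r = 0.93, and Hspa5 and Hsp90aa1 at r = 0.91, and Hspb1 correlated with Cryab at r = 0.51, with Hsp90aa1 at r = 0.61 and with Hspa5 at r = 0.76. Over the 6 uninjured samples alone, the first pair of correlations was 0.78 and 0.43, and that of Hspb1 with Hspa5 was -0.06. Cryab and Hspa5 correlated at 0.88 over the 9 samples and at 0.04 over the uninjured samples. Hspb1 ran opposite to Cryab and Hsp90aa1 over the uninjured samples, at r = -0.84 and r = -0.91. Cryab was at 0 in uninjured 1, 2 and 6, so its correlations over the uninjured samples rest mainly on uninjured 3 and 4. Hspa1a and Hspa1b correlated at r = 0.94 and Hspb1 and Hspa8 at r = 0.83 over the uninjured samples, and Hspa1b and Dnajb1 at r = 0.91. The values over 9 samples contain the injury difference, and all values contain the pairs of libraries, so they describe the samples and were not tested. Ranked over 5821 genes and the 9 samples, the closest gene was Taf15 for Hspa5 (r = 0.998), Pbrm1 for Hsp90aa1 (r = 0.993) and Ndst1 for Cryab (r = 0.982). For Dnajb1 it was mt-Nd4 (r = 0.974).

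The wider chaperone families held genes that rose and genes that fell. Of 125 genes in 9 lists, 119 were tested, 31 were higher and 22 were lower, and without the 10 heat shock genes, 27 of 109 were higher and 22 were lower, against 21.3% and 22.7% of all genes tested. Differences between the lists were not tested. In the small heat shock family, Hspb8 rose from 11.7 to 31.8 CPM (log2 fold change 1.43, edgeR adjusted p = 7.57e-05), so 3 of the 5 tested were higher, and Hspb11 fell from 53.8 to 38.8 CPM (log2 fold change -0.47, edgeR adjusted p = 0.0396). In the Hsp70 family, 2 of 10 genes were higher and 3 were lower. Hspa9, the mitochondrial Hsp70, rose the most, from 76.7 to 353 CPM on average (log2 fold change 2.20, SE 0.13, edgeR adjusted p = 1.89e-07). It was at 72.1 to 83.1 CPM in the uninjured samples and at 309, 319.8 and 430.4 CPM in the injured samples. Hspa12a, a divergent Hsp70, fell from 123 to 34.6 CPM (log2 fold change -1.84, edgeR adjusted p = 3.50e-06), and Hspa2 fell from 34.4 to 12.9 CPM (log2 fold change -1.39, edgeR adjusted p = 0.00137). The other gene that fell, Hspa12b, was named after its values were seen (log2 fold change -1.44).

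Among 37 Hsp40 genes, 6 were higher and 11 lower. Dnaja1, the most abundant, was at 383 and 351 CPM (log2 fold change -0.13, edgeR adjusted p = 0.424), the mitochondrial Dnaja3 and the ribosome-bound Dnajc2 rose by log2 fold changes of 0.89 and 0.61, and Dnajc27 and Dnajc21 fell by 1.40 and 0.65. Of the 10 chaperonin genes, 5 were higher and 0 lower (0 at an unadjusted p under 0.05, 0 by DESeq2 and 0 by limma-voom), with the most abundant, Cct8, at 187 and 227 CPM (log2 fold change 0.28, edgeR adjusted p = 0.182), Cct4 at a log2 fold change of 0.59 and Cct2 at 0.48. Tcp1, Cct3 and Cct7, named after their values were seen, were the others, at 0.38, 0.28 and 0.40. Among co-chaperones, Stub1, the most abundant in uninjured samples, was at 256 and 215 CPM (log2 fold change -0.25, edgeR adjusted p = 0.491). Fkbp4 fell from 175 to 90.2 CPM (log2 fold change -0.96, edgeR adjusted p = 0.0012) and Stip1 from 114 to 72.2 CPM (log2 fold change -0.66, edgeR adjusted p = 0.00582), and 4 of 24 co-chaperones were lower and 1 higher, against 22.7% and 21.3% of all genes. Bag2 and St13, named after their values were seen, were the others lower, at log2 fold changes of -1.15 and -0.64. The 1 higher, also named after its values were seen, was Bag3, which sorts proteins bound by Hsp70 and small heat shock proteins to autophagy, at 2.87 and 10.3 CPM (log2 fold change 1.86, edgeR adjusted p = 0.000269). Of 4 genes of the Hsp110 family, 0 were higher (0 at an unadjusted p under 0.05, 0 by DESeq2 and 0 by limma-voom) and Hspa4l was lower (log2 fold change -0.38, edgeR adjusted p = 0.046). Among 5 genes, the heat shock factors and Hsbp1, which encodes a protein that binds them, 0 were higher, with 1 at an unadjusted p under 0.05, 1 by DESeq2 and 1 by limma-voom, and Hsf4 fell by 1.71 (edgeR adjusted p = 0.00491). Hsbp1, the most abundant, was at 306 and 255 CPM (log2 fold change -0.26, edgeR adjusted p = 0.469). Hsf1, the main activator of heat shock genes, named after its values were seen, was at 16.1 and 15.3 CPM (log2 fold change -0.07, edgeR adjusted p = 0.742).

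**Figure D5:**
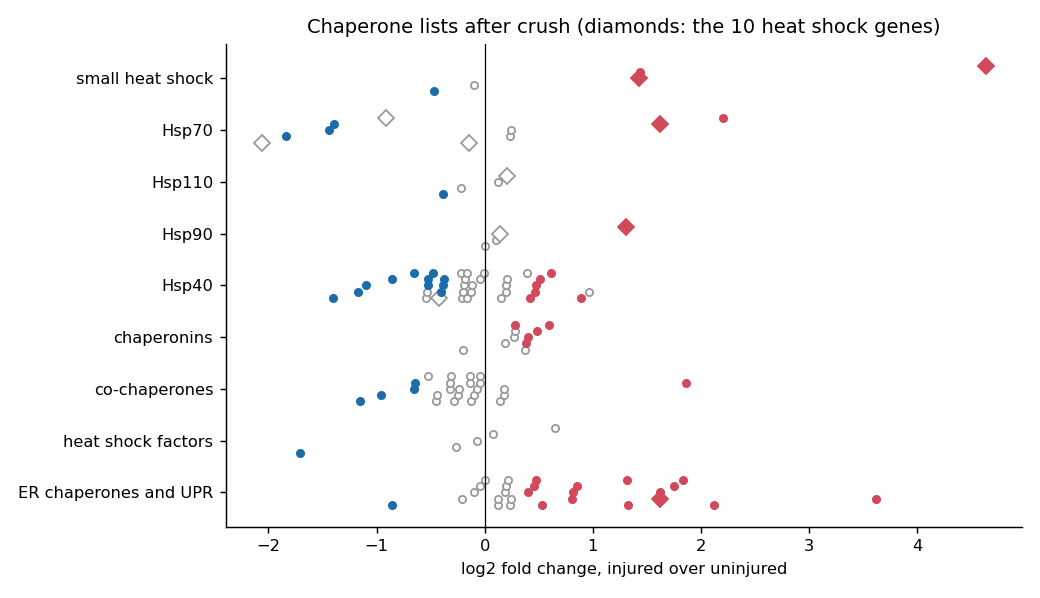
Log2 fold change (horizontal axis) of each tested gene of the chaperone lists (points), with diamonds for the 10 heat shock genes. Red points were higher, blue points lower and open points not past the threshold; 15 of the 27 endoplasmic reticulum genes were higher.

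Each UMI marks 1 molecule, so levels can be set side by side between genes without regard to length, as far as transcripts were caught equally. In uninjured samples, Hsp90ab1 (1699 CPM), Hspa8 (1448 CPM) and Hsp90aa1 (1154 CPM) led, followed by Hspa5 (145 CPM), Hspb1 (64.7 CPM) and Hsph1 (58.3 CPM), Dnajb1 (25.6 CPM) and Hspa1a (14.6 CPM), and last Hspa1b (3.54 CPM) and Cryab (1.35 CPM). The first 3 were not in this order in every library, since Hsp90aa1 was above Hspa8 in uninjured 3 and 4 and Hspa8 above Hsp90ab1 in uninjured 5 and 6. Hspb1 and Hsph1 differed by less than their spread (SD), as did Hspa1b and Cryab. In injured samples the order was Hsp90aa1 (2848 CPM), Hsp90ab1 (1872 CPM), Hspa8 (1310 CPM), Hspa5 (444 CPM), Hspb1 (172 CPM), Hsph1 (67.3 CPM) and Cryab (57.9 CPM), the last pair within its spread, then Dnajb1 (19.4 CPM), Hspa1a (7.75 CPM) and Hspa1b (0.905 CPM).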

How the data were processed

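The deposited files hold UMI counts per gene and cell, which the authors made with Cell Ranger 7.0.1 on build mm39 per the labels (the methods name an older release). Counts were summed per library, and the mean of injured 3 and 4, which share barcodes, was used, giving 6 uninjured and 3 injured samples. Genes were filtered with filterByExpr, scaled by the trimmed mean of M-values and tested for condition with edgeR 4.0.16's robust quasi-likelihood test in R 4.3.3, with Benjamini-Hochberg adjustment at 0.05 over all 14234 genes tested. DESeq2 1.42.0, limma 3.58.1, other filters and scalings, cells without 3 or more markers of another class, and left-out libraries were tried as alternatives. SE is that of the log2 fold change, for edgeR back-calculated as its absolute value divided by the square root of the test's F statistic. Cells were thinned to 8000 UMIs with seed 1 in Python 3.11.15. Shallower cells were left out of every value given for thinned cells, but not of the library sums tested in the main setting. The authors capped UMIs per cell against doublets, and no doublets were called here. Floors are 3 UMIs. Heat shock genes and lists were chosen with earlier results of these data known. From each list, the most abundant gene and up to 2 genes with the largest rises and falls among called genes were named if their mean log2 CPM reached 4, with the most abundant and defining markers of cell classes and the genes closest in correlation.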

Additional observations from a re-analysis of the deposited data

Results flagged for a closer look

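In 63 groups of 6 uninjured samples, 7 values lay far from the rest, by the gap to the nearest sample relative to the group's range (Dixon's test). Chance picks about 1 in 20 such groups. Cryab was at 6.87 CPM in uninjured 4 against 0 to 1.05 CPM in the others, and its share of thinned cells there was 8.23% against 0. The lens list summed to 9.21 CPM in the same library against 3.03 to 5.33 CPM in the other uninjured libraries. Hspa8 and Hsp90ab1 were found in 92.6% and 96.8% of the thinned cells of uninjured 1, against 97.8% to 100% and 99.0% to 100% in the other uninjured libraries. In uninjured 1, Hspa8 was found in 41.7% and Hsp90ab1 in 75% of the 12 thinned cells with under 1% of ribosomal protein UMIs, and both in 100% of the other 83. The rod list summed to 17.1 CPM in uninjured 5 against 3.37 to 6.29 CPM, and the endothelial list to 4.44 CPM in uninjured 3 against 0.453 to 1.81 CPM. No cause was tested.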

How the results depend on the processing

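Under 29 alternatives, 25 planned and 4 chosen after seeing the data, 275 of 278 log2 fold changes of the heat shock genes kept their direction and their side of the threshold, and 0 reversed. Hspa5, Hsp90aa1 and Cryab passed in every setting that tested them, at 1.5 to 1.84, 0.95 to 1.48 and 4.09 to 9.40. With at least 10 counts required in every sample, Cryab was not tested, and 3 genes were higher. Hspb1 did not pass with injured 1 and 2 left out (1.54, adjusted p = 0.0704), a setting whose lone injured sample is assumed to vary like the others. Hspa1a passed as lower without uninjured 3, and with uninjured 3 and 4 left out (-1.11, adjusted p = 0.0476), so 1 gene was lower there, and the cause was not tested. Hspa1b was tested in 18 settings.

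Leaving out each library in turn gave 4 heat shock genes higher throughout and 0 to 1 lower. All genes past the threshold numbered 4961 to 6420, with 2488 to 3090 higher and 2473 to 3330 lower. Other chaperone genes higher numbered 18 to 27 and lower 15 to 22, and endoplasmic reticulum genes higher 12 to 15.

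With injured 1 and 2 left out, 3160 genes passed (1727 higher, 1433 lower) and 4 other chaperone genes were lower, with fewer samples. Summing the nearest libraries left 2146 genes lower and 16 other chaperone genes higher and 10 lower, also with fewer samples.

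Libraries 1 to 4 of each condition share numbers. With a replicate block, 7782 genes passed (3857 higher, 3925 lower), 4 heat shock genes among them, and without the block 8230 (4080 higher, 4150 lower), with 41 other chaperone genes higher. Correlations of same-numbered libraries were -0.06, 0.01, -0.05 and -0.05, so the numbers do not pair the samples.

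Retinas were pooled, animals per library are unknown, and Xist was common in cells of injured 1 and 2 only, so sex runs in part with condition, as does the reporter mCherry, whose carrier the labels do not name. Injured libraries were shallower, so shares of rare transcripts rest on thinned cells, and 3 UMIs set their floor. Surviving cells at a single time were sequenced, so loss of cells and change within cells cannot be told apart.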
